A study of Rattus norvegicus with 6 samples.

Results

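Nppa, Nppb, Myh7 and Acta1 are 4 of the 32883 rat genes in the deposited count table. They were chosen as marker genes of the fetal heart and of cardiac hypertrophy, by a rule that lists their Ensembl IDs and uses no count, although earlier results of these data were known when the set was proposed. The table lists IDs only, and the symbols are those given with the IDs when the set was defined: ENSRNOG00000008176 for Nppa, ENSRNOG00000008141 for Nppb, ENSRNOG00000016983 for Myh7 and ENSRNOG00000017786 for Acta1. All 4 were present and passed the filter on low counts, which left 13823 genes.

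The study asked which transcripts come down with MBNL1 (muscleblind-like 1), an RNA-binding protein that regulates splicing, localisation and stability of its target RNAs. Ventricular cardiomyocytes from rat pups at postnatal day 1 to 2, depleted of non-myocytes by pre-plating, were all transduced with an adenovirus that carries FLAG-tagged MBNL1 (multiplicity of infection 100, 48 h). RNA was sequenced from 3 anti-FLAG immunoprecipitates (RIP) and from 3 samples of cleared lysate (Input, 10% of the lysate of each pulldown). Nuclei and debris had been pelleted first, so both groups describe the cleared lysate of cells that overexpress the tagged protein. No IgG control library and no untransduced cells were analysed here, so RNA bound by the antibody or beads alone was not measured.

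The heart expresses a distinct set of genes before birth, much of which is switched off in the adult ventricle and comes back under pressure overload or injury. Nppa and Nppb encode the precursors of the atrial and B-type natriuretic peptides, secreted hormones that promote salt excretion and vasodilation. Myh7 encodes the slow beta-myosin heavy chain, which in rodent ventricles gives way after birth to the faster alpha chain from Myh6. Acta1 encodes skeletal alpha-actin, which the fetal heart makes together with the cardiac actin from Actc1. In the RefSeq annotation of the rat genome (GRCr8), Nppa and Nppb are direct neighbours with 0 genes between them. Myh7 lies beside Myh6 with 0 protein-coding genes between them.

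These RefSeq entries were matched by current symbol and not by the IDs of the table, and RefSeq also lists Myh7 as an older name of Myh6. The short stretches below are shown because they mark what the 4 genes have upstream of their start sites, a feature not used to choose them. They come from the RefSeq promoter table of GRCr8, in which all 4 genes had an entry under their current symbol, and capitals mark the motif. The 250 bases before each start were searched on both strands for GATAA, the core of a site for GATA factors, for TATAAA, and for the CArG box, the site of serum response factor. GATAA was found once in Nppa and 3 times in Nppb, and in 23.5% of 33469 promoters. The CArG box was found once in Acta1 and in 1.5% of promoters. TATAAA was found once in each of Nppa, Nppb and Acta1 and in 12.9% of promoters, and none of the 3 motifs was in the Myh7 window.
Nppa, GATAA, chr5:163712041-163712070, plus strand: cttcgctggactGATAActttaaaagggca
Nppb, GATAA, chr5:163699876-163699905, plus strand: aggaatgtgtctGATAAatcagaGATAAcc
Acta1, CArG box, chr19:68784269-68784298, minus strand: tgcccaacacCCAAATATGGcttgggaagg
These letters describe the genes, and the counts below measure RNA in a pulldown and not promoter activity. Of the RNA itself, only the first 50 transcribed bases were at hand. MBNL proteins prefer short RNA sites of the form CGCC or CGCT, and likewise TGCC or TGCT, which were searched there on the sense strand. One such tetramer occurred in Nppb and none in the other 3 genes, and 54.2% of all such windows held at least 1. The rest of each transcript was not searched.

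The sarcomere genes Myh7 and Acta1 were enriched in RIP, by 1.83-fold and 1.5-fold over Input. Nppa was depleted, to 72.3% of its Input level. Nppb, at 94.4%, did not pass the test. So 2 of the 4 genes were called enriched, where 33% of all tested genes were, and 1 of 4 was called depleted, where 34.9% were. A gene was called at an adjusted p under 0.05 in edgeR's quasi-likelihood test over all 13823 genes. With 67.9% of tested genes called in either direction, these shares are near the background, and the calls describe single genes. The direction and size for each gene carry the result, and the median log2 fold change was 0.25 over the 4 genes and -0.03 over all tested genes. Input was part of the lysate of each pulldown, so these fold changes compare RNA fractions and not expression between groups of cells. For levels in the lysate, bulk counts cannot tell fewer cells that express a gene from less RNA of it per cell.

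The libraries held 17265349 to 18145453 counts in RIP and 19150577 to 19325661 in Input. One gene outside the set, ENSRNOG00000014076, took 19.6% to 28.1% of the counts in RIP and 7.79% to 8.89% in Input. Its share was highest in RIP replicate 1, the library in which Nppa, Nppb and Acta1 also had their highest RIP level. Levels are given as CPM (counts divided by the size of the library in units of 1e+06 counts), after scaling by TMM, a factor per library estimated from the bulk of the genes. With library sizes alone the log2 fold changes of all genes moved by a median of -0.15, and 38.2% of called genes were enriched instead of 48.6%. Whether the 3 libraries of each group stem from different cultures is not stated in the labels, so the p-values measure only how these libraries vary. Markers of cell types could not be checked, because no table at hand pairs the IDs of other genes with symbols.

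Nppa, the precursor of the atrial peptide, was the most counted of the 4 genes in the lysate. In Input replicates 1, 2 and 3 it stood at 5555, 5283 and 5181 CPM. In RIP replicates 1, 2 and 3 it stood at 4477, 3768 and 3337 CPM. The groups did not overlap: the highest RIP library lay below the lowest Input library, and the RIP libraries were spread more widely. Their coefficient of variation was 14.9% against 3.61% in Input. The mean went from 5340 ± 193 CPM in Input to 3861 ± 576 in RIP (SD, n = 3 each). This gave a log2 fold change of -0.47 (SE 0.1, 95% interval -0.67 to -0.26, edgeR adjusted p = 0.000274). The fall was moderate for this data set, since 30.5% of tested genes had a lower log2 fold change. Nppa ranked 15 by Input CPM, not corrected for length. Of the 20 top-ranked genes, 14 were depleted and the median log2 fold change was -2.83, while over ranks 21 to 100 the median was 0.03, so its value lay between those of the 2 bands. In RIP it ranked 10.

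Nppb, the precursor of the B-type peptide, did not pass the test. Its Input libraries stood at 1243, 1160 and 1228 CPM, and its RIP libraries at 1348, 1058 and 1021 CPM. RIP replicate 1 lay above all Input libraries and RIP replicates 2 and 3 below all of them, so the groups overlapped. The mean over Input was 1210 ± 44.4 CPM and that over RIP 1142 ± 179 (SD, n = 3 each). The difference was -0.08 on the log2 scale (SE 0.09, 95% interval -0.28 to 0.11, edgeR adjusted p = 0.444). The interval reaches to both sides of 0, so these libraries show neither a small depletion nor its absence.

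The call for Nppb turned on scaling and on a single library. Without RIP replicate 1 the log2 fold change was -0.22 and past the threshold (edgeR adjusted p = 0.0156). With library sizes only it was -0.24 (edgeR adjusted p = 0.0328). As a share of all counts, RIP replicates 1, 2 and 3 gave Nppb 0.1196%, 0.1016% and 0.1021%, with 95% Wilson intervals of 0.118 to 0.1212, 0.1001 to 0.1031 and 0.1007 to 0.1036. Input replicates 1, 2 and 3 gave it 0.1265%, 0.1278% and 0.1281%, with intervals of 0.1249 to 0.1281, 0.1262 to 0.1294 and 0.1265 to 0.1297. On that scale every RIP library lay below every Input library. Once the counts of ENSRNOG00000014076 were taken out of the totals, the mean share of Nppb was 0.142% in RIP and 0.139% in Input. The order of the groups in these shares therefore depended on whether that gene was in the denominator. The TMM-scaled fit did not: with that gene left out of library sizes and TMM, Nppb stayed at -0.08 (edgeR adjusted p = 0.461). The Wilson intervals cover counting error only and are narrow, so depth was not what limited the comparison of Nppb.

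Myh7, the beta-myosin heavy chain, had the highest fold change of the 4. Its Input libraries stood at 1846, 2040 and 1429 CPM. Its RIP libraries stood at 3038, 3132 and 3538 CPM. All RIP libraries lay above all Input libraries, with the lowest of the 9 RIP-to-Input ratios at 1.49 and the highest at 2.48. By library totals alone these ratios ran from 1.2 to 2.37. The mean went from 1772 ± 312 to 3236 ± 266 CPM (SD, n = 3 each). The fitted log2 fold change was 0.87 (SE 0.11, 95% interval 0.65 to 1.09, edgeR adjusted p = 2.58e-07). Only 11.8% of tested genes had a higher value, and Myh7 ranked 1615 of the 4563 enriched genes. By CPM, not corrected for length, it moved from rank 32 in Input to rank 15 in RIP. The Input libraries differed more for Myh7 than for the other 3 genes, with a coefficient of variation of 17.6% against 3.61% to 8.17%. Between same-numbered libraries the log2 difference was 0.72, 0.62 and 1.31 for numbers 1, 2 and 3. The third is set by the lowest Input and the highest RIP value of this gene.

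Acta1, skeletal alpha-actin, also rose in the pulldown. In Input replicates 1, 2 and 3 it stood at 1322, 1388 and 1180 CPM. In RIP replicates 1, 2 and 3 it stood at 2185, 1875 and 1759 CPM. The groups did not overlap, and the 9 RIP-to-Input ratios ran from 1.27 to 1.85, or from 1.15 to 1.57 by library totals alone. The mean went from 1297 ± 106 to 1940 ± 220 CPM (SD, n = 3 each). The fitted log2 fold change was 0.58 (SE 0.09, 95% interval 0.39 to 0.77, edgeR adjusted p = 8.35e-06), with 21.1% of tested genes above it. Acta1 moved from rank 42 to rank 30 by CPM. Its same-numbered differences were 0.73, 0.43 and 0.58. A gain in rank does not by itself mark enrichment, since the depleted Nppa also moved up, from rank 15 to rank 10. Nppb moved from rank 49 to rank 67.

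**Figure D1:**
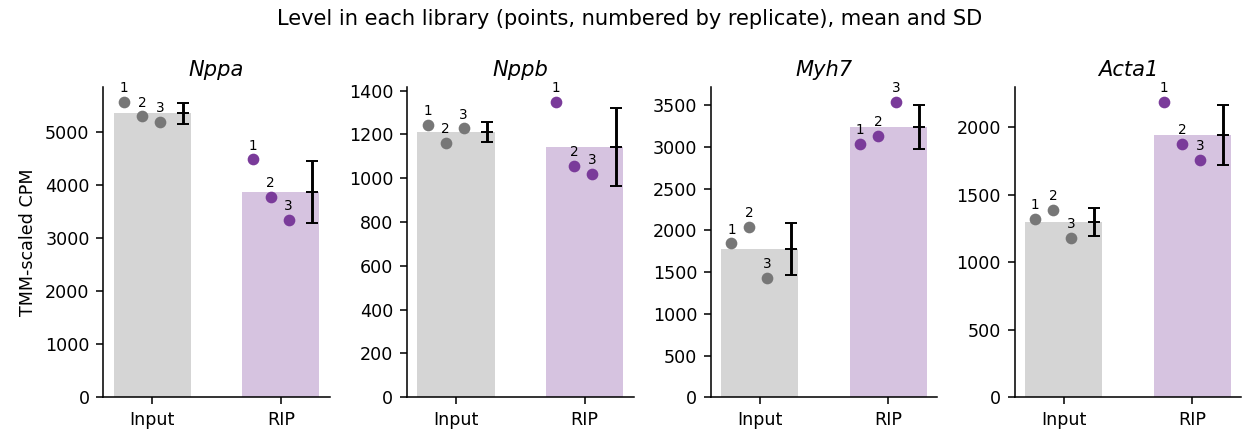
Level of Nppa, Nppb, Myh7 and Acta1 in each library, in TMM-scaled CPM, with 1 panel per gene and axes that start at 0. Points are the 3 Input (grey) and 3 RIP (purple) libraries numbered by replicate, bars are means and the black marks show the SD; the groups overlap for Nppb and not for the other 3 genes.

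Groups did not overlap for 3 of the 4 genes, where 71.1% of all tested genes had no overlap on the same scale. Nppb, Myh7 and Acta1 were among the 80 genes ranked 21 to 100 by Input CPM. Of these, 36 were enriched and 30 depleted, with a median log2 fold change of 0.03. Myh7 and Acta1 stood above that median and Nppb below it. Because TMM sets the bulk of the genes near 0, these values are relative to that bulk. They do not give the amount of RNA recovered in the pulldown. As shares of the library total, Nppa went from 0.562% ± 0.0208 to 0.364% ± 0.0318 of all counts, and Myh7 from 0.187% ± 0.0378 to 0.308% ± 0.0426 (SD, n = 3 each).

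**Figure D2:**
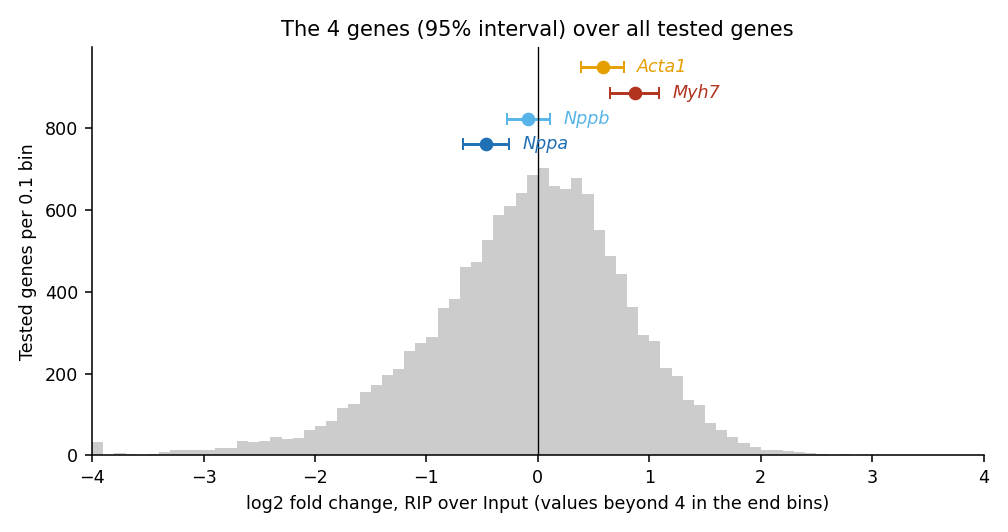
Log2 fold change of RIP over Input for the 13823 tested genes (grey, number of genes per bin) and, above the bars, for the 4 genes with their 95% intervals. Nppa lies at -0.47, Nppb at -0.08, Acta1 at 0.58 and Myh7 at 0.87, all between the 5th and 95th percentiles of the tested genes, -1.71 and 1.22.

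Ratios between the 4 genes within a library do not depend on any scaling factor, and so test whether the genes differ from each other in the pulldown. All 6 pairs were compared over libraries by an exact permutation test (two-sided), whose smallest possible p with 3 against 3 is 0.1. This test did not pair RIP and Input libraries by number. With 3 pairs the smallest possible exact p is 0.25. The 6 pairs are built from the same 4 genes, so they are not independent of each other or of the fold changes above. Pairs of other genes were not compared, so how common such separation is among them is not known. Each natriuretic gene had lower ratios to each sarcomere gene in RIP. The Nppa to Acta1 count ratio was 4.2, 3.81 and 4.39 in Input replicates 1, 2 and 3 and 2.05, 2.01 and 1.9 in RIP. It was thus 2.08-fold lower in RIP, with tight values in both groups (exact permutation p = 0.1, 0.12 adjusted over the 6 pairs).

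The Nppa to Myh7 ratio showed the widest gap. It was 3.01, 2.59 and 3.63 in Input and 1.47, 1.2 and 0.943 in RIP, and so 2.57-fold lower in RIP (exact permutation p = 0.1, 0.12 adjusted). In RIP replicate 3 more reads came from Myh7 than from Nppa, which was the case in no other library. For Nppb the gaps were smaller, 1.97-fold against Myh7 and 1.59-fold against Acta1, and again without overlap (exact permutation p = 0.1, 0.12 adjusted, for each).

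The ratio of the 2 natriuretic genes to each other was also without overlap. The Nppa to Nppb ratio was 4.47, 4.55 and 4.22 in Input and 3.32, 3.56 and 3.27 in RIP. Every RIP value lay below every Input value, a mean log2 difference of -0.38 with SDs of 0.06 in Input and 0.07 in RIP (n = 3 each, exact permutation p = 0.1, 0.12 adjusted). Nppa was thus 1.3-fold lower relative to Nppb in the pulldown, a comparison free of the scaling on which the call of Nppb itself turned. The sarcomere genes were not separated in this way. The Myh7 to Acta1 ratio was 1.4, 1.47 and 1.21 in Input and 1.39, 1.67 and 2.01 in RIP, which overlap (exact permutation p = 0.3, 0.3 adjusted). The mean log2 difference of 0.3 ranged from 0.17 to 0.44 when single libraries were left out, and this design does not show that the 2 genes behave alike.

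**Figure D3:**
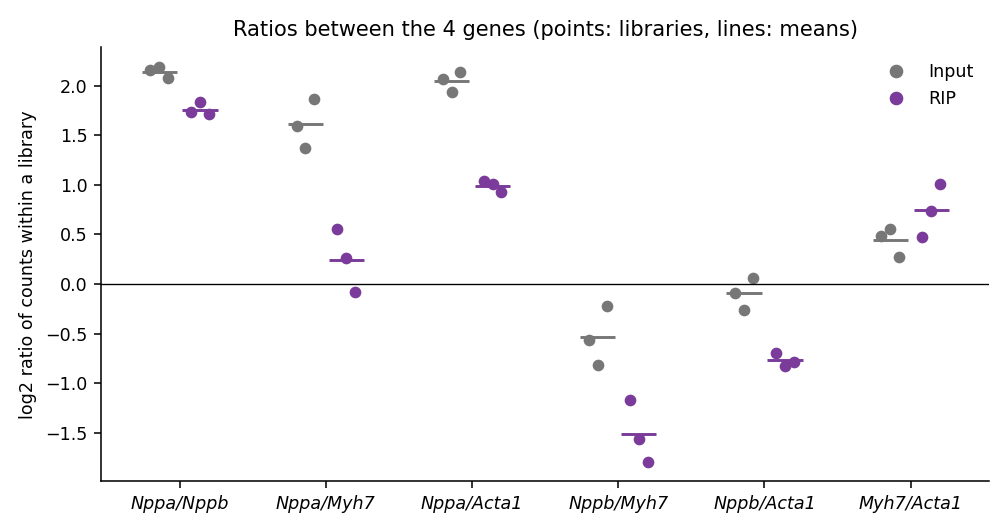
Log2 ratio of counts between each pair of the 4 genes within a library, with Input in grey and RIP in purple; points are libraries and lines are group means. In 5 pairs the groups do not overlap, and for Myh7/Acta1 they do. The pairs share genes and are not independent. Pairs of other genes were not compared, and 71.1% of single tested genes had no overlap.

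The directions for Nppa, Myh7 and Acta1 held under each of 18 alternative fits, which changed the test, the scaling, the filter or the libraries used. Their log2 fold changes ranged from -0.63 to -0.37 for Nppa, from 0.67 to 1.01 for Myh7 and from 0.42 to 0.66 for Acta1, with adjusted p-values of at most 0.00744, 2.96e-05 and 0.000895. For Nppb the range was -0.24 to 0.0027, with adjusted p-values of 0.0156 to 0.984.

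**Figure D4:**
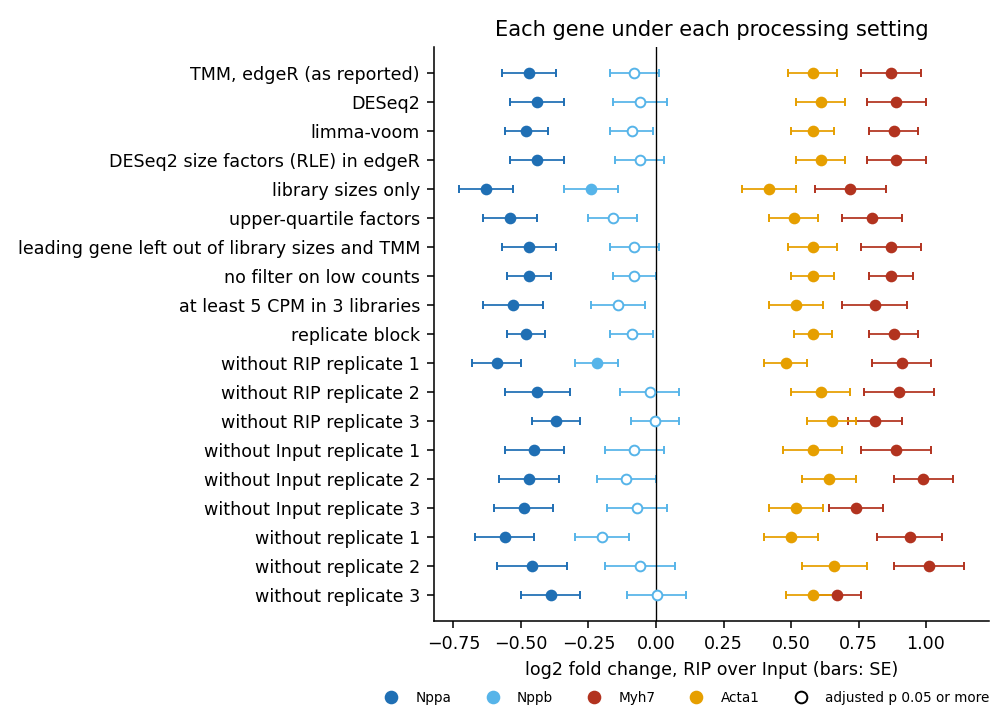
Log2 fold change of RIP over Input (x axis, bars are SE) for the 4 genes under the reported fit and each of 18 alternatives (rows). Open points did not pass an adjusted p of 0.05; Nppb is filled with library sizes only and without RIP replicate 1, and the other 3 genes are filled in every row.

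The gene whose profile over the 6 libraries was nearest to each of the 4 was found among 9750 others of at least 5 CPM, by the root mean square difference of mean-centred log2 CPM. For Nppa it was ENSRNOG00000028822, at a distance of 0.034, which went from 79.5 ± 1.87 CPM in Input down to 56.1 ± 7.56 CPM (SD, n = 3 each) and was called depleted (log2 fold change -0.51, edgeR adjusted p = 2.5e-05). That its fold change is close to the one of Nppa follows from its selection on the same libraries. For Nppb the nearest gene was ENSRNOG00000014480 at 0.035, for Myh7 ENSRNOG00000027955 at 0.057 and for Acta1 ENSRNOG00000009960 at 0.034. The one nearest to Myh7 had low levels, 6.14 CPM in Input and 10.7 CPM in RIP (means). Such profiles were common for 3 of the genes: 162, 151 and 177 genes lay within 0.1 of Nppa, Nppb and Acta1. For Myh7, which had the highest fold change of the 4 and uneven Input libraries, 20 did, and the reason was not tested. None of the 4 nearest genes was a member of the set, and the distance between Nppa and Nppb was 0.2 and that between Myh7 and Acta1 0.23. The 6 libraries give few points for such a likeness, which is a description only.

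The counts of Myh7 and Acta1 are less certain in one respect. The coding sequences of Myh7 and Myh6, and those of Acta1, Actc1 and other actin genes, are very similar, and how the submitters counted reads that map to several genes is not given in the sources used here. Part of the counts of Myh7 and Acta1 may have been gained from or lost to these relatives, in RIP and in Input. Its part in the results was not tested.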

How the data were processed

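The deposited file holds raw read counts per Ensembl rat gene in 6 libraries; the tools named, per the submitters' processing notes, are STAR, featureCounts and DESeq2. The sources used here do not give versions, genome build, strand setting or how multiply mapping reads were treated. The IDs of the table were looked for in RefSeq's GRCr8 gene table, where 0 of 47357 genes carry an Ensembl ID, so the planned lists of other cardiac genes, cell type markers and MBNL factors could not be matched, and no gene length was used. The GRCr8 coordinates printed are those of RefSeq promoter entries matched by symbol.

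Genes were filtered with filterByExpr (minimum count 10, minimum total 15). The comparison of RIP and Input used edgeR 4.0.16 under R 4.3.3, TMM factors and quasi-likelihood F tests, with no covariate and Benjamini-Hochberg adjustment over 13823 genes. SE is the log2 fold change over the square root of F. The fit was tested on simulated counts with few changed genes and balanced directions. That test does not cover the choice of scaling. DESeq2 1.42.0, limma-voom (limma 3.58.1), other scalings and filters, a replicate block and left-out libraries were the alternatives. The depth of 17265349 to 19325661 counts per library gives at least 17535 counts of every member in every library. The 4 genes, the lists and the tests were chosen with earlier results of these data known. Besides the 4 genes, the gene nearest in profile to each was named by rule. ENSRNOG00000014076 was named after its values were seen.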

Additional observations from a re-analysis of the deposited data

How the results depend on the processing

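Nppa, Myh7 and Acta1 kept direction and call under all 18 alternative fits. Nppb did not: with library sizes only its log2 fold change was -0.24 and passed the threshold, and over the fits that leave out libraries it ranged from -0.22 (without RIP replicate 1, which passed) to 0.0027 (without replicate 3 of both groups, a sign opposite to the reported -0.08, edgeR adjusted p = 0.984). The cause was not tested. Over all 18 alternative fits the number of enriched genes lay between 3458 and 4711 and that of depleted genes between 3933 and 5590. The lowest number of depleted genes came from the filter of at least 5 CPM in 3 libraries, which left 10019 genes. With the replicate block the log2 fold changes were -0.48, -0.09, 0.88 and 0.58 for Nppa, Nppb, Myh7 and Acta1, and no call changed. Same-numbered RIP and Input libraries deviated together only weakly (r of 0.054, 0.172 and 0.063 across genes), though each correlated best with its own number. A quasi-binomial model, which is approximate with 6 libraries, gave log2 ratio differences of -0.39 (Nppa/Nppb), -1.35 (Nppa/Myh7), -1.05 (Nppa/Acta1), -0.96 (Nppb/Myh7) and -0.66 (Nppb/Acta1), which passed the threshold that the exact test cannot reach, and 0.3 (Myh7/Acta1), which did not pass. Taking ENSRNOG00000014076 out of the totals raised the shares of counts by construction. Nppa came to 0.479% in RIP and 0.614% in Input, and Nppb to 0.142% and 0.139%. Myh7 came to 0.401% in RIP and 0.204% in Input, and Acta1 to 0.24% and 0.149%. With 3 libraries a group, the spread between libraries and not depth limits these comparisons.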
